A study of Sus scrofa with 6 samples.

Results

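The spleen of RAG2 knockout pigs was set beside the spleen of wild-type littermates, all 3 months old, with 1 total RNA sequencing library for each genotype. The account covers every listed gene that reached 1 FPKM in either spleen library, 2849 of 4122. FPKM is a fragment count divided by transcript length and by library depth, which makes levels of different genes roughly comparable. A high FPKM can still rest on few fragments, as for BST2 in the wild-type spleen, at 1228 FPKM on 3 fragments. The other 1273 genes lay under that level in both. The gene just inside the limit was LYPD4, at 1.004 FPKM on 2 knockout fragments, and the gene just outside was OXTR, at 0.997 FPKM. The knockout is of both RAG2 alleles, and the series title speaks of a single deleted amino acid. The RAG1 and RAG2 proteins together cut DNA to join the gene segments of T-cell and B-cell receptors, and T and B cells that lack either do not mature. The labels give neither the sex of the animals nor how many contributed to a library. Lymph node and thymus libraries of the same genotypes, 6 libraries in all, enter only where a spleen value is set beside them.

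The spleen joins a blood filter to a lymphoid organ. In the red pulp, macrophages take up worn red cells and recycle their iron. The white pulp holds T cells around arterioles and B cells in follicles, placed by chemokines that reticular stromal cells secrete. The marginal zone between them, and in the pig the macrophage sheaths around the terminal capillaries, catch particles and microbes from the blood. Capsule and trabeculae of smooth muscle and collagen carry vessels and sympathetic nerves, and blood cells can form in the red pulp under demand.

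Sizes are log2 ratios of the knockout value to the wild-type value, each with 1 FPKM added. A gene was called higher or lower where this ratio was at least 1 in size and the 95% Clopper-Pearson interval of the ratio of scaled fragment counts lay on the same side of equal levels. Folds are those count ratios, with the interval in brackets, and the interval covers counting error only. With 1 library a side no difference has a replicate check, and no p-value can be given. In whole tissue, fewer cells of a type and less RNA per cell cannot be told apart. Where a pair of values stands together, the wild type comes first.

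The libraries were checked against the 6 measured spleen identity genes, whose levels were not all highest in spleen. WT1, a transcription factor of splenic stroma, stood at 55.4 and 49.1 FPKM, against 0 and 4.1 FPKM in lymph node and 0 and 0 FPKM in thymus, whose tables were normalised separately. VCAM1, an adhesion molecule of red pulp macrophages and stroma, stood at 4398 and 4635 FPKM, the red-cell gene HBB at 41406 and 18970.2 FPKM and the macrophage gene CD5L at 365 and 1320.2 FPKM, each above the same genotype in lymph node and thymus. The scavenger receptor MARCO stood at 131 and 129 FPKM in spleen and 876 and 1897 FPKM in lymph node, and CXCL12 at 2118 and 1024 FPKM and 2319.7 and 1774 FPKM. CD163 and HMOX1, both typical of red pulp macrophages, were listed at 0 in all 6 libraries, as were 768 genes in all, the everyday genes HPRT1, RAC1 and CTSD among them. Of 11 listed pancreas genes 1 was measured, CELA1 at 15.5 and 17.3 FPKM. RAG-1 (chromosome 2, 24565447 to 24573853 in Sscrofa11.1), the listed name of RAG1, had 19 and 1 fragments in spleen, and RAG2, under the limit, had 4 and 0. A transcript level does not check the genotype labels.

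A gene of the Y chromosome separated the libraries. EIF1AY (chromosome Y, 9687350 to 9704489 in Sscrofa11.1), a translation initiation factor, had 0 and 194 fragments in spleen, 0 and 209 fragments in lymph node and 1 and 597 fragments in thymus, and SRY had 0 in every library. Sex and genotype of the animals therefore cannot be told apart in these values. Of 91 measured X-linked genes 8 were called higher and 8 lower, with a median log2 ratio of 0.031, and of 2647 autosomal genes 196 and 225, with a median of -0.016. The ribosomal RNA gene RN18S, a sign of how completely ribosomal RNA was removed, stood at 663 and 1674 FPKM, and RN5-8S at 114688 and 156883 FPKM. Their part in the differences between the libraries was not tested.

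The spleen tables held 2084768 wild-type and 2514982 knockout fragments in the listed genes. In all, 213 of the 2849 genes (7.48%) were called higher in the knockout spleen and 240 (8.42%) lower, and the median over all measured genes was -0.016. The counts given for each gene list are to be read against these shares. By size alone 253 and 286 genes passed. Of the 453 called genes 434 had at least 10 fragments in 1 library. The gene with the most fragments was EEF1A1, a translation elongation factor, in wild type and the iron store FTL in the knockout.

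**Figure D1:**
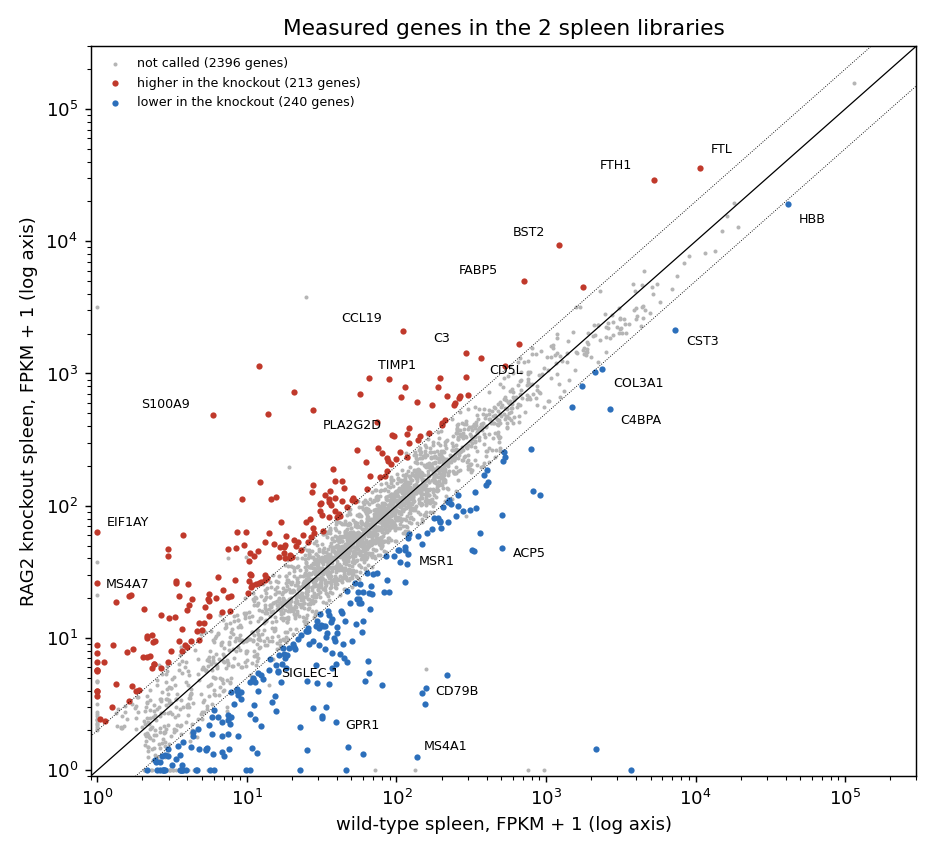
FPKM + 1 of each measured gene in the wild-type (horizontal, log axis) and knockout (vertical, log axis) spleen library, 1 point a gene. Red points are the 213 genes called higher, blue points the 240 called lower and grey points the others; the solid line marks equal levels and the dotted lines a 2-fold difference. FTL and FTH1 lie above the line at the top of the range, HBB and CST3 below it.

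Both chains of ferritin, which stores iron, were called higher, and they were the most abundant of the measured iron genes in both libraries. FTL (chromosome 6, 54231121 to 54232756 in Sscrofa11.1), the light chain of ferritin, stood at 10766 FPKM (wild type) and 36050.5 FPKM (knockout), 3.39-fold higher (3.34 to 3.44). FTH1 (chromosome 2, 9535051 to 9537979), the heavy chain that oxidises iron, stood at 5273 FPKM (wild type) and 29040.1 FPKM (knockout), 5.59-fold higher (5.47 to 5.71). The intervals do not overlap, so on counting error alone the heavy chain differed by the larger ratio. Of 18 measured genes of iron and haem handling 5 were called higher (27.8%) and 2 lower, with a median of -0.074. That is a larger share on the higher side than over all genes, with the median near that of all genes. The copper-bearing iron oxidase CP stood at 119 and 384 FPKM, 3.22-fold higher (3.03 to 3.43). SLC11A1, which pumps metal ions out of the phagosome, stood at 116 and 345 FPKM, 3.1-fold higher (2.37 to 4.09), and the iron-binding granule protein LTF at 2.97 and 7.6 FPKM, 2.57-fold higher (1.51 to 4.57).

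The carriers of iron and haem in plasma went the other way. TF, transferrin, stood at 43.4 FPKM (wild type) and 6.06 FPKM (knockout), 7.13-fold lower (5.21 to 9.97), and the haem carrier HPX had 6 and 0 fragments. The other 11 measured members, of iron entry, haem export and iron sensing among others, were not called. The transferrin receptor TFRC stood at 60.2 and 72.3 FPKM, the haem exporter FLVCR1 at 18.2 and 18.6 FPKM and the iron sensor IREB2 at 38 and 33.6 FPKM. NCOA4, which delivers ferritin for breakdown, stood at 488 and 273 FPKM, and the membrane iron reductase CYBRD1 at 365 and 195 FPKM. The summed level of the list went from 17923 to 66963 FPKM, most of it the ferritin chains.

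Red pulp macrophage genes went in both directions, and their most abundant members were not called. Of 12 measured members 3 were called higher (25%, against 7.48% over all genes), with a median of 0.13. The only lower call (8.33%, against 8.42%) was the low-count HPX, which was lost with a minimum of 10 fragments. CD5L, a scavenger protein that these macrophages secrete, stood at 365 FPKM (wild type) and 1320.2 FPKM (knockout), 3.63-fold higher (3.48 to 3.79). VSIG4, a receptor for complement-coated particles, stood at 2.5 and 19.9 FPKM on 5 and 45 fragments, 7.71-fold higher (3.07 to 24.9). The chains of complement C1q, made by tissue macrophages, were among the most abundant transcripts of both spleens, with C1QC at 14988 and 11959 FPKM and C1QA at 11563 and 8154 FPKM. Neither was called, nor were VCAM1, the lipid-sensing receptor NR1H3 at 759 and 859 FPKM, the receptor kinase AXL at 255 and 317 FPKM or the mannose receptor MRC1 at 31.3 and 60.3 FPKM.

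ACP5, an iron-containing acid phosphatase of macrophages and osteoclasts, was the lysosomal gene with the largest difference. It stood at 506 FPKM (wild type) and 46.8 FPKM (knockout), 10.5-fold lower (7.73 to 14.5). Of 19 measured lysosomal genes only ACP5 was called lower, and 1 was called higher (5.26% each, against 8.42% and 7.48% over all genes). The saposin precursor PSAP, the most abundant member, stood at 3835 and 4764 FPKM and was not called.

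Among macrophage genes of the marginal zone and the capillary sheaths more were called lower than higher, and 5 of 12 were not called. Of 12 measured members 5 were called lower (41.7%, against 8.42% over all genes) and 2 higher, with a median of -0.06. SIGLEC-1 (chromosome 17, 31994505 to 32021239 in Sscrofa11.1), the listed name of SIGLEC1, binds sialic acid and marks macrophages at the rim of the white pulp. It stood at 60.1 FPKM (wild type) and 3.75 FPKM (knockout), on 905 and 66 fragments, 16-fold lower (12.5 to 20.9). MSR1 (chromosome 17, 3859903 to 3939612), a scavenger receptor for modified lipoproteins and bacteria, stood at 321 FPKM (wild type) and 45.2 FPKM (knockout), 7.06-fold lower (6.09 to 8.21). The lipid carrier APOE stood at 398 and 143 FPKM, 2.76-fold lower (2.48 to 3.08), and the lectin CD209 had 7 and 0 fragments. MARCO, the scavenger receptor that defines marginal zone macrophages in rodents, stood at 131 and 129 FPKM and was not called, nor was CD36 at 279 and 262 FPKM.

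The ficolins, lectins that tag microbes for complement, are neighbours on chromosome 1 and went in opposite directions. FCN1 (274125666 to 274132917), a monocyte product, stood at 257 FPKM (wild type) and 98.9 FPKM (knockout), 2.57-fold lower (2.24 to 2.96). FCN2 (274106276 to 274111970) stood at 8.28 FPKM (wild type) and 111 FPKM (knockout), 13.6-fold higher (9.05 to 21.2). The central complement protein C3 was also higher, at 289 and 1426 FPKM, 4.96-fold higher (4.74 to 5.19).

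Monocyte and macrophage activation genes were called in both directions. Of 25 measured members 5 were called higher and 3 lower (SIGLEC-1, MSR1 and APOE), with a median of -0.087. The shares were 20% and 12%, against 7.48% and 8.42% over all genes. FABP5, a fatty acid carrier of activated macrophages, stood at 709 FPKM (wild type) and 5005 FPKM (knockout), 7.19-fold higher (6.75 to 7.67). LYZ, the bacteriolytic enzyme lysozyme, stood at 73.5 and 432 FPKM, 5.93-fold higher (5.17 to 6.82), and the endotoxin co-receptor CD14 at 42.2 and 154 FPKM, 3.67-fold higher (3.11 to 4.35). MS4A7, a membrane protein of mature monocytes, had 1 and 62 fragments, 53.1-fold higher (9.18 to 2130.5). AIF1 at 2058 and 1914 FPKM, the cathepsin CTSB at 1870.0 and 1541 FPKM, TLR4 at 318 and 295 FPKM and the costimulator CD86 at 153 and 153 FPKM were not called. Outside the lists, and chosen after their values were seen, the folate receptor FOLR2 of resident macrophages stood at 81.9 and 21.3 FPKM, 3.82-fold lower (2.95 to 4.99), and the inhibitory receptor CD200R1 at 47.7 and 17.2 FPKM, 2.76-fold lower (2.22 to 3.45).

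The receptors for the chemoattractant chemerin were both lower. GPR1 (chromosome 15, 109467078 to 109528931 in Sscrofa11.1) stood at 38.3 FPKM (wild type) and 1.31 FPKM (knockout), on 249 and 10 fragments, 29.1-fold lower (15.5 to 61.4). CMKLR1, named after its values were seen, stood at 309.9 and 92.5 FPKM, 3.33-fold lower (2.97 to 3.73).

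**Figure D2:**
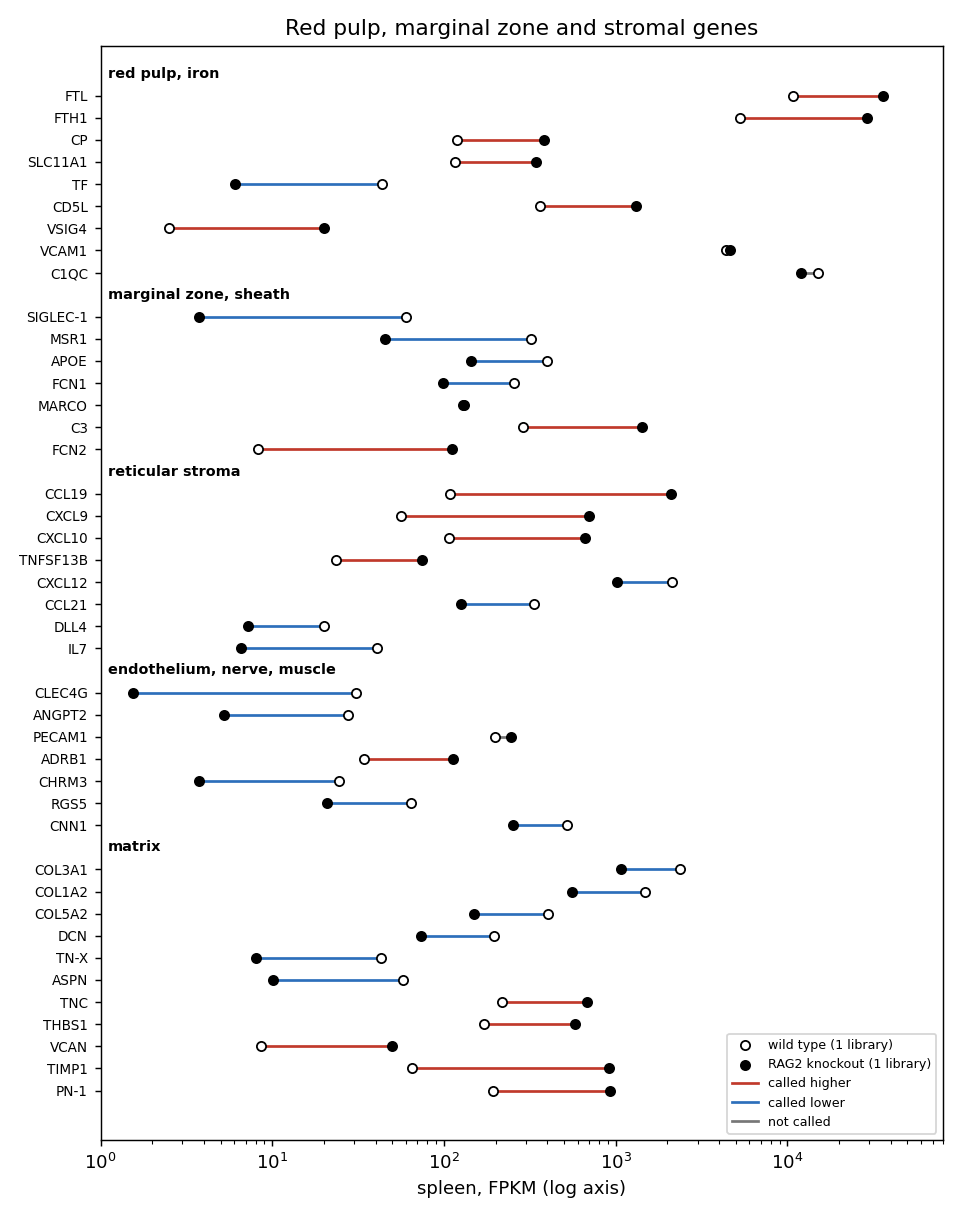
FPKM in the wild-type (open circle) and knockout (filled circle) spleen library for genes of the red pulp, marginal zone, reticular stroma, vessels, nerve, muscle and matrix (log axis, 1 library each, no error bars). Red bars join values of genes called higher, blue bars those called lower and grey bars those not called. Ferritin, CCL19 and TIMP1 were higher in the knockout, SIGLEC-1, CLEC4G and the fibrillar collagens lower.

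The chemokines and survival factors of white pulp stroma were called in both directions. Of 17 measured members 4 were called higher (23.5%, against 7.48% over all genes) and 5 lower (29.4%, against 8.42%). The median was 0.022, close to 0 and of either sign under other scalings. CCL19 and CCL21 share the receptor CCR7, draw T cells and dendritic cells into the T-cell zone, and are neighbours on chromosome 10. CCL19 (32110366 to 32112529 in Sscrofa11.1) stood at 109 FPKM (wild type) and 2097 FPKM (knockout), on 40 and 963 fragments, 20.6-fold higher (15 to 29). CCL21 (32093783 to 32094482) stood at 336 FPKM (wild type) and 126 FPKM (knockout), on 259 and 118 fragments, 2.56-fold lower (2.05 to 3.21), so these ligands of the same receptor differed in direction. How fragments shared between near-identical genes were counted is not given in the sources used here. The receptor itself, CCR7, stood at 28.5 and 12.5 FPKM, 2.26-fold lower (1.72 to 2.99).

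The interferon-induced chemokines that draw activated T and NK cells were higher with CCL19. CXCL9 stood at 55.9 FPKM (wild type) and 694 FPKM (knockout), 12.8-fold higher (9.49 to 17.8), and CXCL10 at 107 FPKM (wild type) and 659 FPKM (knockout), 6.24-fold higher (5.54 to 7.06). TNFSF13B, the B-cell survival factor BAFF, stood at 23.6 and 74.3 FPKM, 3.18-fold higher (2.37 to 4.31). The T-cell survival factor IL7 stood at 40.8 FPKM (wild type) and 6.62 FPKM (knockout), 6.07-fold lower (3.47 to 11.4). CXCL12, which holds plasma cells and progenitors in place, stood at 2118 and 1024 FPKM, 2.0-fold lower (1.85 to 2.16). DLL4, the Notch ligand of vessels and stroma, had 195 and 83 fragments, 2.74-fold lower (2.11 to 3.59), and the macrophage growth factor IL34 had 18 and 8 fragments, 2.63-fold lower (1.09 to 6.98). The receptors through which lymphotoxin and TNF act on stroma were not called, LTBR at 100.5 and 172 FPKM and TNFRSF1A at 173 and 285 FPKM. LTB and LTA, the lymphotoxin chains that lymphocytes supply, were lower, LTB at 327 and 44.1 FPKM (7.32-fold lower, 6.01 to 8.98) and LTA with 11 and 0 fragments (at least 4.28-fold lower).

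Follicular dendritic cell genes were mostly not called. Of 11 measured members 1 was called lower, the low-affinity IgE receptor FCER2, which B cells also carry, on 70 and 5 fragments. That share, 9.09%, was near the 8.42% called lower over all genes. CLU stood at 1050.5 and 619.6 FPKM, the milk-fat globule protein MFGE8, which bridges dying cells to phagocytes, at 309.7 and 205 FPKM and the Fc receptor FCGR2B at 21.7 and 28.3 FPKM.

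Matrix genes were called in both directions, more often lower than higher. Of 18 measured members 7 were called lower (38.9%, against 8.42% over all genes) and 3 higher (16.7%, against 7.48%). The median was -0.94, or -0.90 with genes at 0 set to their bound. COL3A1 (chromosome 15, 93556914 to 93595678 in Sscrofa11.1), the collagen of reticular fibres, stood at 2374 FPKM (wild type) and 1077 FPKM (knockout), 2.2-fold lower (2.16 to 2.24). COL1A2 stood at 1484 and 558 FPKM, 2.65-fold lower (2.59 to 2.72), and COL5A2 at 406 and 149 FPKM, 2.72-fold lower (2.59 to 2.85). The small proteoglycans that bind collagen fibrils were lower as well, ASPN at 57.5 and 10.1 FPKM, DCN at 195 and 73.7 FPKM and LUM at 15.2 and 4.52 FPKM. The tenascin TN-X, which spaces fibrils, stood at 43.2 and 8.07 FPKM, 5.35-fold lower (4.69 to 6.12). The matricellular proteins POSTN at 32.6 and 17.3 FPKM and SPP1 at 2.93 and 3.63 FPKM and the proteoglycan link protein HAPLN1 at 13 and 8.52 FPKM were not called. COL5A1, the partner chain of COL5A2, stood at 12.6 and 7.92 FPKM, the elastic-fibre protein FBN1 at 250.2 and 128 FPKM and the calcification inhibitor MGP at 1246 and 659 FPKM, and none of these was called.

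The 3 matrix genes called higher were VCAN, THBS1 and TNC. VCAN, a large proteoglycan, stood at 8.58 FPKM (wild type) and 49.7 FPKM (knockout), 5.79-fold higher (5.12 to 6.56). The adhesive glycoprotein THBS1, also a platelet product, stood at 172 and 577 FPKM, 3.36-fold higher (3.23 to 3.5), and TNC, the tenascin of injured tissue, 3.11-fold higher (3.0 to 3.23) at 218 and 679 FPKM. The largest difference of the matrix lists was an inhibitor. TIMP1 (chromosome X, 42103251 to 42106289), which blocks matrix metalloproteinases, stood at 65 FPKM (wild type) and 919.9 FPKM (knockout), 14.4-fold higher (11.8 to 17.8). PN-1 (chromosome 15, 125748383 to 125777788), the listed name of SERPINE2, blocks thrombin and plasminogen activators and stood at 194 FPKM (wild type) and 921 FPKM (knockout), 4.77-fold higher (4.46 to 5.1).

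Of 17 measured matrix proteases and inhibitors 4 were called higher (23.5%, against 7.48% over all genes) and 1 lower (5.88%, against 8.42%), with a median of 0.13. The plasminogen activator PLAU stood at 51.5 and 107 FPKM, 2.09-fold higher (1.84 to 2.37), and the gelatinase MMP9 5.99-fold higher (2.97 to 13.7) on 9 and 63 fragments. MMP3, stromelysin, stood at 45.9 and 5.63 FPKM, 8.09-fold lower (5.47 to 12.4). The fibroblast proteases MMP2 at 180.1 and 130.1 FPKM and MMP14 at 258 and 319 FPKM were not called, nor was the collagen chaperone SERPINH1 at 613 and 630.4 FPKM. THY1, a surface protein of fibroblasts and pig T cells named after its values were seen, stood at 910.3 and 119 FPKM, 7.41-fold lower (6.15 to 8.98).

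Endothelial genes were called at about the share over all genes, with individual genes far apart. Of 19 measured members 16 were not called, 1 was higher (5.26%, against 7.48%) and 2 lower (10.5%, against 8.42%), with a median of 0.26. CLEC4G (chromosome 2, 71433406 to 71436570), a lectin of sinusoidal endothelium, stood at 30.7 FPKM (wild type) and 1.55 FPKM (knockout), on 67 and 4 fragments, 19.6-fold lower (7.29 to 73.9). ANGPT2, which loosens vessels, stood at 27.8 and 5.21 FPKM, 5.3-fold lower (3.73 to 7.7), and its counterpart ANGPT1, made by perivascular cells, 3.12-fold lower (2.27 to 4.34) at 26.8 and 8.54 FPKM. The vasoconstrictor EDN1 stood at 4.02 and 10.4 FPKM, 2.61-fold higher (1.55 to 4.57). The junction protein PECAM1 stood at 198 and 245 FPKM, ENG at 254 and 353 FPKM, VWF at 77.1 and 92.7 FPKM and CLDN5 at 45.4 and 54.2 FPKM, all without a call. The clotting factor F8, an endothelial product, stood at 101 and 45.2 FPKM, 2.24-fold lower (2.07 to 2.42).

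Smooth muscle genes of capsule and trabeculae had a pair of lower calls. Of 13 measured members 2 were called lower (15.4%, against 8.42% over all genes) and 0 higher, with a median of -0.27. RGS5, a signalling brake of pericytes, stood at 64.3 and 20.8 FPKM, 3.07-fold lower (2.51 to 3.76), and the contraction regulator CNN1 at 522 and 252 FPKM, 2.05-fold lower (1.91 to 2.21). ACTA2, smooth muscle actin, stood at 2226 and 2320.3 FPKM and TAGLN at 2137 and 1966 FPKM, not called. The myosin light chain MYL9 stood at 546 and 396 FPKM and desmin, DES, at 850.5 and 656 FPKM, also without a call.

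Receptors for nerve transmitters were called in both directions. Of 10 measured nerve and neuroendocrine genes 1 was called higher (10%, against 7.48% over all genes) and 2 lower (20%, against 8.42%). ADRB1, a receptor for noradrenaline, stood at 34.2 FPKM (wild type) and 112 FPKM (knockout), 3.3-fold higher (2.7 to 4.06). The muscarinic receptor CHRM3 stood at 24.4 and 3.76 FPKM, 6.45-fold lower (4.03 to 10.8), and the neuropeptide Y receptor NPY1R 9.63-fold lower (3.43 to 37.4) on 33 and 4 fragments. The transmitter NPY itself stood at 1.66 and 0 FPKM and was not called.

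Growth factors were lower more often than higher. Of 23 measured members 8 were called lower (34.8%, against 8.42% over all genes) and 1 higher (4.35%, against 7.48%), with a median of -0.27. IGF1, the growth hormone mediator that macrophages and stroma also make, had 35 and 2 fragments, 20.4-fold lower (5.25 to 175), at 30.8 and 1.47 FPKM. HBEGF, a ligand of the EGF receptor, stood at 63 and 5.66 FPKM, 10.9-fold lower (5.48 to 24.7), and the receptor FGFR2 5.32-fold lower (2.55 to 12.4) on 41 and 9 fragments. IGFBP3, which binds IGF1 in plasma, stood at 14.1 and 50.1 FPKM, 3.61-fold higher (2.27 to 5.96). The stem cell factor KITLG stood at 257 and 155 FPKM without a call, while its receptor KIT stood at 148 and 50.2 FPKM, 2.94-fold lower (2.68 to 3.24).

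Platelet-lineage genes were called higher and none lower. Of 17 measured members 8 were called higher (47.1%, against 7.48% over all genes), with a median of 1.21. TBXAS1, which makes thromboxane and is also a macrophage gene, stood at 8.92 and 62.6 FPKM, 7.05-fold higher (5.13 to 9.91). The integrin chains of the fibrinogen receptor were both higher, ITGB3 at 10.2 and 40.7 FPKM (3.99-fold higher, 3.3 to 4.84) and ITGA2B at 5.83 and 14.7 FPKM (2.54-fold higher, 1.86 to 3.51). TUBB1, the tubulin of platelets, stood at 6.86 and 19.6 FPKM, 2.87-fold higher (2.16 to 3.86), and the granule receptor TREML1 4.22-fold higher (2.35 to 8.12) on 14 and 69 fragments. The ADP receptor P2Y12R, at 15 and 7.26 FPKM, lay just under the size limit on the lower side and passed it under some alternatives. Adhesion genes shared with endothelium were not called, VWF at 77.1 and 92.7 FPKM and SELP at 6.26 and 11.7 FPKM.

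The transcription factors of red-cell formation were higher while the globin was lower. KLF1 had 5 and 46 fragments, 7.88-fold higher (3.14 to 25.4), GATA1 had 5 and 42 fragments, 7.19-fold higher (2.85 to 23.3), and NFE2, which serves red cells and platelets, had 14 and 89 fragments, 5.44-fold higher (3.08 to 10.4). GATA1 and NFE2 also count among the higher calls of the platelet list. HBB stood at 41406 FPKM (wild type) and 18970.2 FPKM (knockout), 2.12-fold lower (2.09 to 2.16). The other 9 of 13 measured erythroid genes were not called (list median 0.34), among them the erythropoietin receptor EPOR at 20.7 and 27.5 FPKM and the haem synthesis enzyme FECH at 165 and 119 FPKM. The shares called were 23.1% higher and 7.69% lower, against 7.48% and 8.42% over all genes. Haematopoietic progenitor genes other than KIT were not called, CD34 standing at 25.7 and 39.9 FPKM and RUNX1 at 27.9 and 38.7 FPKM. None of 13 measured cell cycle genes was called (median -0.19), with PCNA at 197 and 159.8 FPKM and MKI67 at 98 and 118 FPKM.

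Calgranulin and granule genes of neutrophils were among the largest differences above the wild type. Of 18 measured members 12 were called higher (66.7%, against 7.48% over all genes) and 3 lower (16.7%, against 8.42%), with a median of 1.86. The calgranulins S100A9, S100A12 and S100A8, from 1 cluster on chromosome 4, stood at 4.97 and 484 FPKM, 12.9 and 493 FPKM and 19.6 and 721 FPKM. CHI3L1, a chitinase-like granule protein, stood at 11.3 and 151 FPKM, 13.5-fold higher (10.2 to 18.2), and RETN, resistin, had 2 and 56 fragments. The peptidoglycan receptor PGLYRP1 had 1 and 35 fragments. Cathelicidin peptides of the pig were higher on few fragments, PMAP-36 at 9 and 85 fragments, NPG4 at 3 and 42 fragments, PR39 at 2 and 16 fragments and PMAP-23 at 2 and 20 fragments. PMAP-36, NPG4 and PMAP-23 were named after their values were seen, and these genes are near-identical neighbours between which fragments can be split. LCN2, a granule protein that binds bacterial siderophores, stood at 33.5 and 9.91 FPKM, 3.34-fold lower (2.17 to 5.29). IL1R2, a decoy receptor for interleukin 1 that neutrophils shed, had 2 and 76 fragments (32.5-fold higher, 8.7 to 274).

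Follicular and marginal zone B-cell genes were called lower except for 3 that other cells share. Of 9 measured members 6 were called lower (66.7%, against 8.42% over all genes) and 0 higher, with a median of -5.23. The B-cell surface protein MS4A1 stood at 135 and 0.257 FPKM, CD79A at 146 and 2.86 FPKM and CD79B at 156 and 3.19 FPKM. The lipid-presenting CD1D at 92.1 and 68.3 FPKM, CD40 at 101 and 99 FPKM and CD72 at 24.1 and 26 FPKM, which macrophages or dendritic cells can also carry, were not called. LOC100152327, a locus of chromosome 14, 48800248 to 49001525 in Sscrofa11.1 with no gene name in the reference, had 4137 and 1 fragments (4831-fold lower, 867 to 190861).

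T-cell genes were called lower in 13 of 21 cases (61.9%, against 8.42% over all genes) and higher in none (median -1.18). CD3E stood at 155 and 2.16 FPKM, the interleukin 7 receptor IL7R at 28.2 and 3.59 FPKM, CD5 at 35.8 and 6.71 FPKM and CD8A at 17.6 and 6.43 FPKM. Signalling genes that NK cells share were not called, CD247 at 188 and 131 FPKM, CD2 at 127 and 78.5 FPKM and LCK at 67 and 41.4 FPKM, and neither was CD3D at 83.7 and 92.9 FPKM. CD3G and CD8B, with log2 ratios of -0.62 and 0.21, were not called either, unlike CD3E and CD8A. Of 14 NK and cytotoxic genes 5 were called higher (35.7%, against 7.48% over all genes) and 2 lower (14.3%, against 8.42%), with a median of 0.89. NKL, the pore-forming NK-lysin, stood at 87.5 and 909 FPKM (10.7-fold higher, 8.53 to 13.6) and NKG7 at 84.9 and 228 FPKM, while the NKG2D adaptor HCST stood at 32.9 and 9.1 FPKM (3.5-fold lower, 1.6 to 8.47). The granzyme GZMB had 0 and 12 fragments, higher, and GZMK 14 and 3 fragments, lower, and the chemokines CCL5 at 105 and 253 FPKM and CCL4 at 16.9 and 49.4 FPKM were higher. Of 10 innate lymphoid cell genes 5 were called lower, KIT, IL7R, GATA3, LTA and LTB, and 1 higher, CXCR6 (median -0.87). The shares were 50% and 10%, against 8.42% and 7.48% over all genes. IL7R and GATA3 also count among the T-cell calls. ID2, AHR, IL23RA and IL-18RA, with log2 ratios of 0.65, -0.48, -0.32 and -0.087, were not called. CXCR6, which guides tissue-resident lymphocytes, stood at 12.2 and 51.8 FPKM, 4.26-fold higher (3.26 to 5.63). Dendritic cell genes went both ways, the cross-presenting subset's receptor XCR1 at 11.3 and 25.5 FPKM and FSCN1, of mature cells, at 29.8 and 89.6 FPKM being higher and the uptake receptor LY75 at 15.2 and 4.58 FPKM lower.

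**Figure D3:**
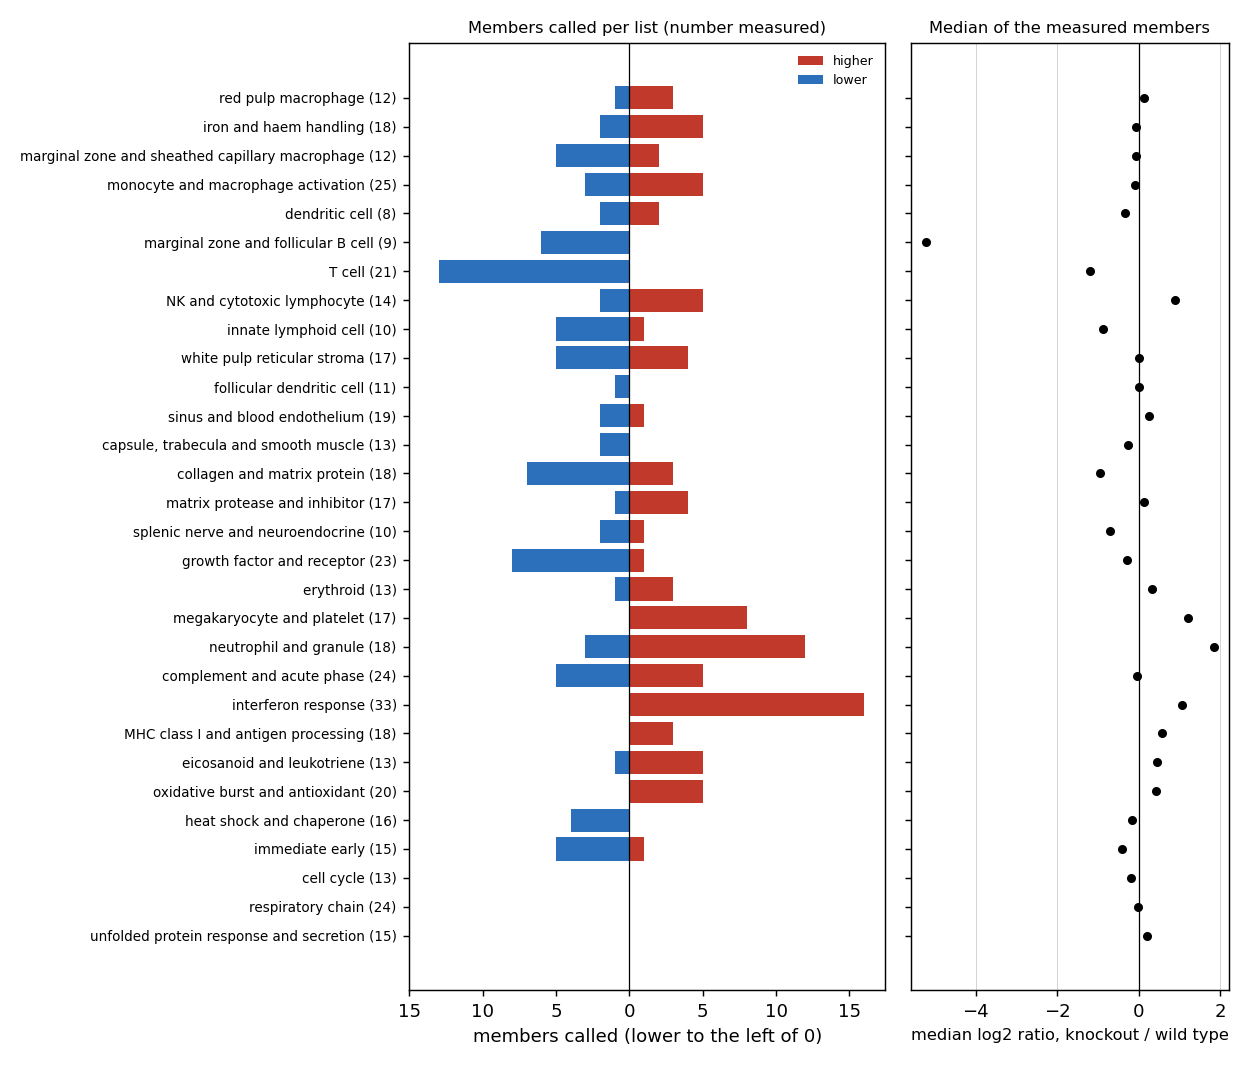
Number of list members called higher (red, right of 0) and lower (blue, left of 0) in the knockout spleen, with the number of measured members in brackets, and in the right panel the median log2 ratio of the measured members. T-cell, B-cell and growth factor lists extend to the left, interferon response, neutrophil and megakaryocyte lists to the right, and cell cycle, respiratory chain and unfolded protein response lists have no called member.

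Interferon-response genes were called higher and none lower. Of 33 measured members 16 were called higher (48.5%, against 7.48% over all genes), with a median of 1.08. The sensor DHX58 stood at 12.9 FPKM (wild type) and 61 FPKM (knockout), 4.73-fold higher (3.79 to 5.97), and USP18, which ends interferon signalling, at 7.45 FPKM (wild type) and 46.9 FPKM (knockout), 6.33-fold higher (4.39 to 9.41). The regulator IRF7 stood at 30.1 and 104 FPKM, 3.48-fold higher (2.88 to 4.22), OAS1, which triggers RNA decay, 8.29-fold higher (5.16 to 14.1), and the antiviral GTPase MX1 at 74.4 and 271 FPKM, 3.66-fold higher (3.33 to 4.04). BST2, which tethers viruses, was listed at 1228 and 9351 FPKM but on 3 and 32 fragments, so its high FPKM rests on few fragments. Members of the OAS, IFIT and GBP families have close copies between which fragments may be split. The sensor IFIH1 at 71 and 63.5 FPKM was not called.

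Genes of interferon production and nucleic acid sensing were called in both directions. Of 16 measured members 3 were called higher and 1 lower, with a median of 0.17. The higher calls were 18.8% of the list, against 7.48% over all genes. JAK1, a kinase of interferon receptors, had 2 and 13 fragments (5.57-fold higher, 1.26 to 50.8), and IFNG, interferon gamma, 2 and 12 fragments (5.14-fold higher, 1.14 to 47.3), both on few fragments. MYD88, the adaptor of Toll-like receptors, stood at 76.8 and 163 FPKM, 2.15-fold higher (1.79 to 2.6). TLR7, a sensor of single-stranded RNA, stood at 68.4 and 29.2 FPKM, 2.33-fold lower (2.06 to 2.65), and its relative TLR8 stood at 265 and 509 FPKM without a call. TLR10 and TLR1, receptors of B cells and phagocytes, were lower, at 34.2 and 3.5 FPKM and 56.6 and 17.4 FPKM. MHC class I and antigen processing genes were called higher in 3 of 18 cases (median 0.57), among them the proteasome activator PSME2 at 299 and 687 FPKM and B2M, the common light chain, on only 9 and 30 fragments. Of 9 MHC class II genes 1 was called, SLA-DOB at 23.8 and 10.3 FPKM, a subunit of the B-cell peptide-loading modulator, while SLA-DRA stood at 3940.0 and 4214 FPKM.

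Enzymes of lipid mediators were called higher at several steps. Of 13 measured members 5 were called higher (38.5%, against 7.48% over all genes) and 1 lower (7.69%, against 8.42%), with a median of 0.46. PLA2G2D (chromosome 6, 78391063 to 78397394 in Sscrofa11.1), a secreted phospholipase of lymphoid-organ macrophages and dendritic cells, stood at 26.8 FPKM (wild type) and 524 FPKM (knockout), 19.8-fold higher (15.9 to 24.8). PTGES, which makes prostaglandin E, stood at 3.01 and 24.4 FPKM, 8.18-fold higher (4.12 to 18.5), and PLA2G7, which breaks down platelet-activating factor, at 15.9 and 74.9 FPKM, 4.74-fold higher (3.54 to 6.46). ALOX5AP, which feeds the first enzyme of leukotriene synthesis, stood at 221 and 73.8 FPKM, 2.96-fold lower (2.47 to 3.55). The inducible cyclooxygenase PTGS2 at 6.51 and 5.23 FPKM and the prostaglandin-degrading enzyme HPGD at 751 and 645 FPKM were not called.

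Antioxidant genes were higher in 5 of 20 measured cases and lower in none, with a median of 0.42, or 0.13 with genes at 0 set to their bound. The higher share was 25%, against 7.48% over all genes. SOD2, the superoxide dismutase of mitochondria, stood at 113 FPKM (wild type) and 793 FPKM (knockout), 7.04-fold higher (6.42 to 7.73). The glutathione peroxidase GPX3 stood at 36.8 and 190.2 FPKM, 5.21-fold higher (4.38 to 6.22), and GPX1 at 1758 and 4517 FPKM, 2.61-fold higher (2.51 to 2.71). The quinone reductase NQO1 stood at 22.7 and 58.6 FPKM, 2.6-fold higher (2.08 to 3.28). SOD1, the cytosolic dismutase, stood at 354 and 537 FPKM, and catalase CAT at 318 and 185 FPKM, neither called.

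HSPA8, the constitutive Hsp70, and 3 of its partners were lower, and the other measured chaperones were not called. Of 16 measured members 4 were called lower (25%, against 8.42% over all genes) and 0 higher, with a median of -0.17. DNAJB1, a co-chaperone induced by heat, stood at 819.7 FPKM (wild type) and 128 FPKM (knockout), 6.34-fold lower (5.77 to 6.99). HSPH1, which recharges Hsp70, stood at 509 and 83.4 FPKM, 6.09-fold lower (5.69 to 6.52), and DNAJA1 at 795 and 265 FPKM, 2.97-fold lower (2.78 to 3.18). HSPA8 itself stood at 1743 and 808 FPKM, 2.15-fold lower (2.08 to 2.22). Cytosolic HSP90AA1 at 2813 and 2472 FPKM was not called, nor were HSPD1 of mitochondria at 380.0 and 421 FPKM and HSP90B1 of the endoplasmic reticulum at 1175 and 1423 FPKM. Of 15 measured immediate-early genes 5 were called lower, NR4A2, NOR-1, BTG1, BTG2 and KLF2, and 1 higher, GADD45G (median -0.40). The shares were 33.3% and 6.67%, against 8.42% and 7.48% over all genes. FOS stood at 53.3 and 72.9 FPKM and DUSP1 at 127 and 176 FPKM, not called.

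**Figure D4:**
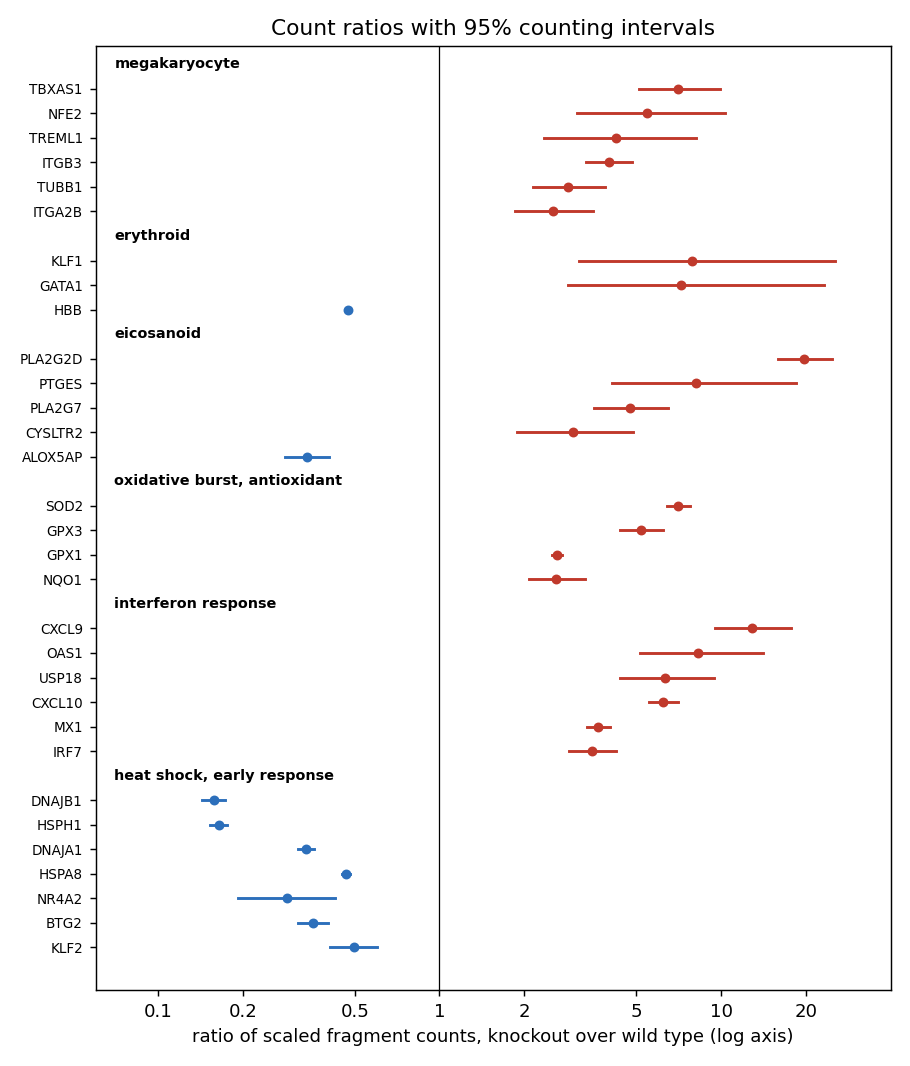
Ratio of scaled fragment counts, knockout over wild-type spleen (log axis), for called genes of 6 groups, with bars for the 95% counting interval of 1 library a side. Red marks genes higher and blue genes lower in the knockout. HBB lies left of equal levels below KLF1 and GATA1, whose bars are wide because they rest on 5 and 5 wild-type fragments.

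Complement and acute phase genes were called as often higher as lower, 5 and 5 of 24 (median -0.049). Each share was 20.8%, against 7.48% higher and 8.42% lower over all genes. Besides C3, the alternative-pathway protease CFB stood at 17 and 39 FPKM, 2.31-fold higher (1.86 to 2.88), and PTX3, a pattern receptor that binds C1q, had 13 and 51 fragments, 3.36-fold higher (1.8 to 6.73). C4BPA (chromosome 9, 67726159 to 67774369 in Sscrofa11.1), a chain of the plasma brake on the classical pathway and outside the list, stood at 2658 FPKM (wild type) and 536 FPKM (knockout), 4.87-fold lower (4.55 to 5.22). The membrane-bound brakes CD55 at 79.7 and 80.2 FPKM and CD59 at 90.3 and 159 FPKM were not called.

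Inflammatory cytokine and chemokine genes were called higher in 7 and lower in 2 of 31 measured cases (median 0.22). The shares were 22.6% and 6.45%, against 7.48% and 8.42% over all genes. The neutrophil chemokine IL8 had 0 and 31 fragments and was at least 8.85-fold higher. IL18, which drives interferon gamma release, stood at 117 and 35.3 FPKM, 3.25-fold lower (2.42 to 4.44). CCL11, which draws eosinophils and stands outside that list, had 0 and 35 fragments and was at least 9.99-fold higher. TNF stood at 27.1 and 13.4 FPKM, IL10 at 13.4 and 19.2 FPKM and NFKBIA, the NF-kB brake, at 333 and 222 FPKM, none of them called.

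Among energy, secretion and fat-cell programmes the share of calls differed by list. None of 24 respiratory chain genes (median -0.006, of either sign under other scalings) and none of 15 genes of the unfolded protein response and secretion (median 0.22) was called. In the latter, the chaperone CALR stood at 1520.3 and 2042 FPKM. Glycolysis and hypoxia genes were called in 4 of 19 cases, 2 each way: HK2 at 6.47 and 19.3 FPKM and PDK4 at 120.0 and 297 FPKM were higher, PFKM at 21.9 and 9.54 FPKM and PGAM2 on 11 and 3 fragments lower. The shares were 10.5% each way, against 7.48% higher and 8.42% lower over all genes. Of 40 lipid and sterol genes 1, FABP5, was called higher and 1, APOE, lower (2.5% each). Fat-cell genes were called higher in 3 (21.4%) and lower in 1 (7.14%) of 14 cases. The fat hormone ADIPOQ, at 10.5 and 5.2 FPKM, and the fat-cell regulator PPARG, at 245 and 230.1 FPKM, were not called.

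Receptors that guide and sustain leukocytes were called in both directions. Of 16 chemokine and sphingosine receptors 4 were called higher and 4 lower (median 0.18), 25% each way against 7.48% and 8.42% over all genes. CCR1, which draws monocytes and neutrophils to inflammation, stood at 211 FPKM (wild type) and 444 FPKM (knockout), 2.11-fold higher (2.0 to 2.24). CXCR4, the receptor of CXCL12, stood at 248 FPKM (wild type) and 82.1 FPKM (knockout), 2.99-fold lower (2.58 to 3.47), so ligand and receptor were both lower. CCR9, of gut-homing and developing T cells, had 16 and 5 fragments, 3.74-fold lower (1.31 to 13). Of 12 interleukin receptors 1 was called higher, IL1R2 on 2 and 76 fragments, and 3 lower: IL7R, IL6R, the binding chain for interleukin 6, at 229 and 103 FPKM, 2.27-fold lower (1.84 to 2.82), and IL12RB2, of the interleukin 12 receptor, with 126 and 34 fragments. The signalling chain IL6ST, shared by the interleukin 6 family, stood at 535 and 633 FPKM and was not called. The interleukin receptor shares were 8.33% higher and 25% lower, against 7.48% and 8.42% over all genes.

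Morphogen pathway genes were called lower more often than higher. Of 29 measured genes of TGF-beta, BMP, Notch and WNT signalling 1 was called higher, the ligand TGFB3 at 30.5 and 84 FPKM (2.76-fold higher, 2.37 to 3.23), and 4 lower (median -0.35). Besides DLL4 these were LEF1, a WNT effector of T cells, the receptor BMPR1B on 25 and 1 fragments and the WNT inhibitor DKK1 on 7 and 1 fragments. The shares were 3.45% and 13.8%, against 7.48% and 8.42% over all genes.

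In the mitochondria, IDH2, which makes NADPH, stood at 34.3 FPKM (wild type) and 105 FPKM (knockout), 3.33-fold higher (1.57 to 7.88). It was 1 of 2 genes called higher among 21 of the citrate cycle and amino acid breakdown, the other being PC, pyruvate carboxylase, at 2.67 and 10.7 FPKM. GOT1, an aminotransferase of the cytosol, stood at 94.7 and 40.9 FPKM, 2.3-fold lower (1.98 to 2.69). The shares of that list were 9.52% higher and 4.76% lower, against 7.48% and 8.42% over all genes. The fat-cell list's higher calls were PCK1, of glucose and glycerol synthesis, at 1.66 and 4.95 FPKM, the glycerol channel AQP7 at 0.717 and 3.34 FPKM and RETN, and its lower call was CIDEC, a lipid droplet protein, at 4.29 and 0.452 FPKM.

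Among all genes, the highest calls besides those above were LOC733603, with no gene name or position in the reference, at 7 and 885 fragments, and ART3, a surface ADP-ribosyltransferase, at 1.99 and 40.4 FPKM (20.5-fold higher, 10.6 to 45.3). CXCL11, the third ligand of the CXCL9 and CXCL10 receptor, had 1 and 27 fragments. The lowest call was LOC102723301 (chromosome 1, 179457000 to 179457281 in Sscrofa11.1), annotated as a signal recognition particle RNA, at 1133 and 0 fragments, which is a multi-copy RNA whose counts depend on how copies are assigned. DAPL1 had 22 and 0 fragments, OAZ3 48 and 1 fragments, C3H2orf40 78 and 1 fragments and E4 18 and 1 fragments, all lower. SLC6A8, a creatine transporter, stood at 218 and 4.29 FPKM. Its fragment counts, 61 and 24, were only 2.97-fold lower (1.82 to 4.98), a smaller difference than the FPKM give.

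A set of calls was made in spleen and in neither other tissue. In lymph node 640 of 2910 measured genes were called (22.0%) and in thymus 640 of 2908 (22.0%), so the spleen had the smaller share of calls. Of the 198 genes higher in spleen and measured in lymph node, 79 were also higher there, 39.9% of the spleen's and 23.9% of the lymph node's. For lower genes it was 73, 32.3% of the spleen's 226 and 29.9% of the lymph node's 244. With thymus 80 higher genes (40.8% of 196, 22.5% of 356) and 57 lower genes (26.4% of 216, 27.3% of 209) were shared, while 14 genes higher and 34 lower in spleen were called the other way in thymus. Over all 2718 genes measured in spleen and thymus, 356 were called higher and 209 lower in thymus. Of 398 called genes measured in all 3 tissues, 57 were under the size limit in lymph node and thymus and differed from both by at least 1 on the log2 scale and by more than counting error, 26 higher and 31 lower. Each tissue has its own control library, and the counting interval of the difference between tissues is the only error known.

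Among the 26 genes higher in spleen alone CXCL9 had the largest ratio. The log2 ratios in spleen, lymph node and thymus were 2.30, 0.14 and 0.068 for C3. For CXCL9 they were 3.61, 0.10 and -0.32, and for CXCL10 2.62, 0.34 and 0.11. The interferon genes USP18 (2.50, 0.76 and -0.16) and DHX58 (2.15, 0.044 and 0.55) were likewise under the limit outside the spleen. PN-1 stood at 2.24, 0.0022 and -0.73, and PTGES at 2.66, 0.04 and 0.29. MASP2, the protease that cleaves C4 and C2 for the lectin pathway, stood at 3.28 and 18.7 FPKM in spleen, 5.73-fold higher (3.37 to 10.4), with log2 ratios of 2.2, -0.82 and -0.17. GATA1 (2.17, -0.60 and 0.83) and PCK2, which makes phosphoenolpyruvate in mitochondria (2.06, -0.69 and -0.85), were also of this kind. MSTO1, a mitochondrial shape factor, stood at 1.95, 0.054 and 0.44.

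Of the 31 genes lower in spleen alone LOC102723301 had the largest ratio. SIGLEC-1 had log2 ratios of -3.69 in spleen, -0.79 in lymph node and 0.028 in thymus, and GPR1 of -4.09, -0.86 and 0.23. IL7 stood at -2.45, 0.081 and -0.084, C4BPA at -2.31, -0.34 and 0.47, and ANGPT2 at -2.21, -0.46 and -0.37. CST3 (chromosome 17, 30471056 to 30474486 in Sscrofa11.1), cystatin C, an inhibitor of cathepsins that macrophages and dendritic cells secrete, stood at 7310.1 FPKM (wild type) and 2119 FPKM (knockout), 3.34-fold lower (3.18 to 3.51). Its log2 ratios were -1.79, -0.36 and 0.64. CLK1, a kinase of splicing factors, stood at -1.81, -0.70 and -0.66, the adhesion protein PCDH7 at -1.73, 0.55 and 0.98, and IL18 at -1.70, 0.33 and -0.66. HCST had -1.75, -0.48 and 0.41, and C14H10orf128 -2.09, -0.54 and 0.96. Among the others, named after their values were seen, were F8 and CALCRL, the receptor for adrenomedullin on vessels, at -1.37, 0.98 and 0.82.

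**Figure D5:**
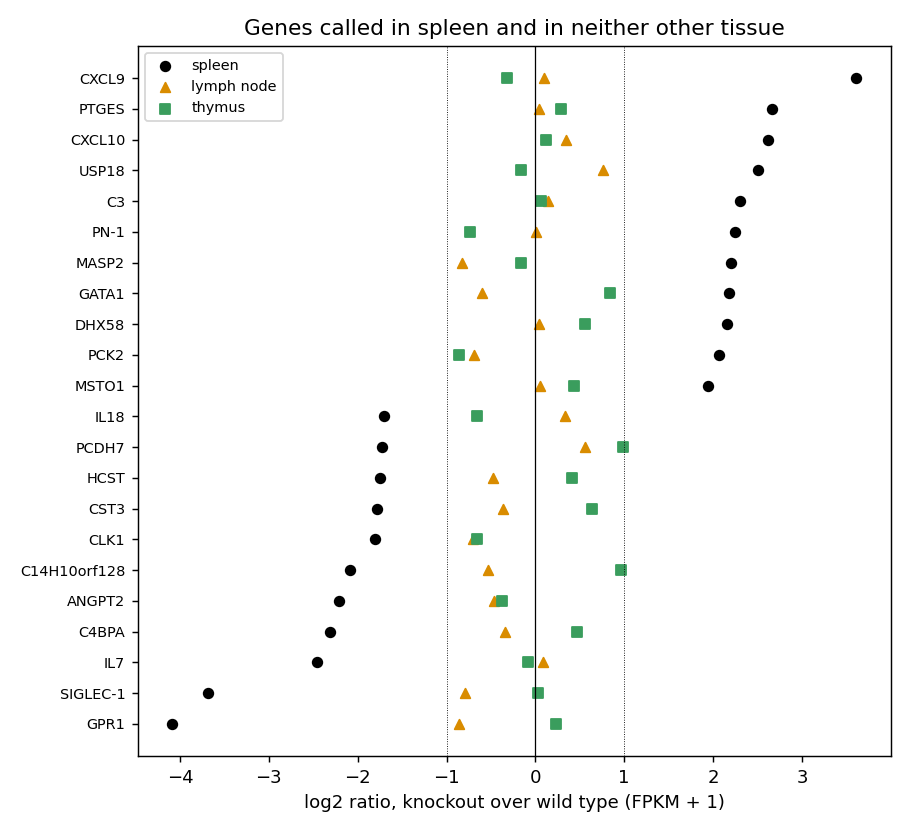
Log2 ratio of knockout over wild type in spleen (black circles), lymph node (orange triangles) and thymus (green squares) for genes called in spleen and in neither other tissue, 1 library for each tissue and genotype, the 12 highest and 12 lowest without the 2 loci that carry no gene symbol. Dotted lines mark the size limit of 1. The spleen values lie outside the dotted lines and those of the other tissues inside.

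Called in both tissues but in opposite directions were 43 genes, 8 higher and 35 lower in spleen, against lymph node. The 8 were among 198 genes higher in spleen and measured in both tissues, and the 35 among 226 lower. Over all 2752 genes measured in both, 244 were called lower and 330 higher in lymph node. Macrophage genes stood on both sides. Among those higher in spleen, PLA2G2D had log2 ratios of 4.24 in spleen and -1.22 in lymph node, and MS4A7 of 3.81 and -1.02. The gelatinase MMP9, of the neutrophil and matrix protease lists, had 1.97 and -3.01. Matrix, receptor and immediate-early genes stood among those lower in spleen. The macrophage scavenger receptor MSR1 was also lower in spleen, with ratios of -2.80 and 1.59. TN-X had ratios of -2.29 and 1.82, and DCN of -1.39 and 2.72. EFEMP1, a fibulin of elastic tissue, had -2.16 and 1.30, and HTRA3, a secreted protease, -1.48 and 2.97. CASR, the calcium-sensing receptor, had -2.32 and 1.58, and HBB -1.13 and 4.16. The lymph node values come from a table normalised on its own, and the difference between the tissues was not tested across animals.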

How the data were processed

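Total RNA of lymph node, spleen and thymus of RAG2 knockout and wild-type pigs was extracted with RNeasy and made into TruSeq Stranded Total RNA libraries, per the labels' protocols, 1 library for each tissue and genotype. The submitters' processing notes name FastQC 0.11.9, Trimmomatic 0.39, STAR 2.7.9a, Cufflinks 2.2.1 and the build Sscrofa11.1. Their settings, the annotation and the use of strand are not stated in the labels or file headers. The authors deposited a table of estimated counts and a table of FPKM for each tissue. The deposited estimated counts are whole fragments multiplied by 1 factor per library, 1.08063 for the wild-type and 0.925385 for the knockout spleen, and were divided by it and rounded. The deposited FPKM values, scaled by the authors within each tissue, were used as given.

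The lists and members were chosen with earlier results of these data known. Ratios of FPKM with 1 FPKM added set the size, and 95% Clopper-Pearson limits on the scaled fragment ratio the counting error. With a depth of 2084768 and 2514982 spleen fragments, tests on simulated counts recovered 100% of 4-fold higher and 96% of 4-fold lower genes, 42% and 36% of 2-fold ones, and called 0.306% of unchanged genes. Both simulated libraries were drawn from the wild-type profile with counting error only. These figures therefore give no rate of false calls between animals. A gene with 0 fragments in a library is given a bound from a floor of 3 fragments per library. Genes were called in spleen alone when measured and under the size limit in both other tissues, with a difference of at least 1 (log2) and an interval of the ratio of ratios excluding equality.

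Named were RAG1 and RAG2, up to 4 called members of each list with the largest ratio and at least 10 fragments, the 15 highest and 15 lowest calls with at least 5 FPKM, the 12 highest and 12 lowest of the spleen-alone set, genes opposite to lymph node, the 10 most abundant genes of each library and the most abundant of each list. Uncalled members show a list's range. Other called genes, among them list members past the fourth such as COL1A2, LYZ, IRF7, ITGA2B and CFB, were named after their values were seen.

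Alternatives were the FPKM and fragment minimum, the pseudocount, the size limit, the interval, counts scaled to their total, by TMM or by DESeq2 size factors, and median centring. Gene positions are from the RefSeq annotation of Sscrofa11.1. Promoter sequences were not used here. Some called genes are not reported here. Python 3.11.15 was used with pandas 2.3.3, scipy 1.17.1, numpy 2.4.6 and, for plots, matplotlib 3.10.9, and edgeR and DESeq2 in R gave scaling factors only.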

Additional observations from a re-analysis of the deposited data

Results flagged for a closer look

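In all, 43 genes were called in spleen and in lymph node with opposite signs, and the values of those reported here follow. Over all 2752 genes measured in both tissues, 330 were called higher and 244 lower in lymph node. Each tissue has 1 library a side, so the difference between the tissues was not tested across animals. The pairs of values are log2 ratios of knockout over wild type, spleen first and lymph node second.

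Of the 8 higher in spleen, PLA2G2D had 4.24 and -1.22, MS4A7 3.81 and -1.02, MMP9 1.97 and -3.01, and the B-cell survival factor TNFSF13B 1.61 and -1.1. The proprotein convertase PC2 had 1.74 and -4.01 on 2 and 24 fragments in spleen, the protease inhibitor SERPINB10 1.20 and -1.17, GCET2, of germinal centre B cells, 1.03 and -2.89 on 3 and 13 fragments, and LOC100622689 1.02 and -2.36.

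Matrix and stromal genes were among the lower set. TN-X had -2.29 and 1.82, EFEMP1 -2.16 and 1.30, DCN -1.39 and 2.72, HTRA3 -1.48 and 2.97, PAMR1 -1.75 and 2.04, MAMDC2 -2.01 and 2.02, and the metalloproteinase ADAMTS20 -1.86 and 1.67. The sarcoglycan SGCE had -2.0 and 1.14, the contraction gene CNN1 -1.05 and 1.18, the cation channel TRPC1 -2.01 and 2.26, and the growth factor receptor FGFR2 -2.06 and 2.45. For TRPC1 the FPKM differed by more than the fragment counts in both tissues. It had 119 and 58 fragments in spleen (37.5 and 8.54 FPKM) and 47 and 89 in lymph node (8.34 and 43.8 FPKM), wild type first.

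Macrophage, blood and lymphoid genes followed. MSR1 had -2.80 and 1.59, HBB -1.13 and 4.16, the blood group carrier ART4 -1.56 and 1.03, KIT -1.54 and 1.17, LCN2 -1.66 and 1.18, and IL12B, a chain of interleukin 12, -1.39 and 1.31 on 9 and 0 fragments in spleen. RAG-1 had -1.52 and 2.28 on 19 and 1 fragments in spleen, and the kinase DAPK2 -2.14 and 1.52.

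Immediate-early genes were NR4A2 with -1.62 and 1.05, NOR-1 with -1.12 and 1.42 and BTG2 with -1.48 and 1.1. Receptors and peptides were CASR with -2.32 and 1.58, PTH1R, for parathyroid hormone, with -1.34 and 1.70, the lipoprotein receptor VLDLR with -1.39 and 1.23, and ADM5 with -1.83 and 1.77.

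The remaining genes were CIDEC with -1.86 and 5.53, DUOXA2, an oxidase maturation factor, with -1.88 and 2.23, PTF-BETA with -1.61 and 3.82, and MYRIP with -1.26 and 1.89. AZIN2 had -1.20 and 1.22, NGFRAP1 -1.16 and 1.15, MTMR11 -1.15 and 1.05, and SLC6A8 -5.37 and 4.88, the last with FPKM that differed by more than its fragment counts.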

How the results depend on the processing

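None of the 181 called named genes was called the other way under the 11 alternatives. A size limit of 2 gave 68 genes higher, 66 lower, 18 in spleen alone and 4 opposite to lymph node. It left 1 red pulp macrophage gene higher and 0 lower, 1 iron gene higher and 1 lower, 3 marginal zone macrophage genes lower and 1 white pulp stroma gene lower. It also left 0 endothelial genes higher, 0 smooth muscle genes lower, 1 matrix gene higher and 2 lower, 3 platelet genes higher, 0 erythroid genes lower, 7 interferon genes higher and 2 chaperones lower. A pseudocount of 5 FPKM gave 150 genes lower in the knockout spleen, 24 opposite to lymph node, 0 red pulp macrophage genes lower, 1 iron gene lower and 0 endothelial genes higher. A minimum of 5 FPKM, or of 10 fragments, gave 0 red pulp macrophage genes lower and 1 iron gene lower, the low-count HPX leaving both lists by construction. A pseudocount of 0.1 FPKM, or counts scaled to their total, gave 1 platelet gene lower, P2Y12R. For the other changes the cause was not tested.

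Of those 181 genes, 92 were no longer called with the size limit of 2, 30 with a pseudocount of 5 FPKM, 4 with counts scaled to their total (AQP7, ARNTL, ESR1 and GCET2) and 1 with DESeq2 size factors (CXCL12). Of 50 list medians, 6 took the other sign with a minimum of 5 FPKM, 5 with counts scaled to their total, 3 with a minimum of 10 fragments and at most 1 under each other alternative, the largest being the dendritic cell list at -0.32. No scaling moved the median of all genes by more than 0.1. No paired analysis was possible because each group has 1 library. For the same reason no replicate could be left out. The planned share of promoters with a motif was not run. Depth limits genes with few fragments: of the 453 calls, 19 had fewer than 10 in both libraries.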

Other observations

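Further called genes, outside the lists and chosen after their values were seen, include surface and checkpoint molecules of myeloid cells. CD274, the ligand PD-L1 of the checkpoint receptor PD-1, stood at 7.32 FPKM (wild type) and 26.4 FPKM (knockout), 3.65-fold higher (2.06 to 6.9). ANPEP, an aminopeptidase of myeloid cells, stood at 9.27 FPKM (wild type) and 37.2 FPKM (knockout), 4.02-fold higher (3.19 to 5.11). CD200R1L, a relative of CD200R1, stood at 49.6 FPKM (wild type) and 109.7 FPKM (knockout), 2.23-fold higher (1.87 to 2.66), the reverse of CD200R1. ENTPD1, which breaks down extracellular ATP, stood at 405 FPKM (wild type) and 184 FPKM (knockout), 2.19-fold lower (2.02 to 2.37), and the lectin CD302 at 105 FPKM (wild type) and 36.8 FPKM (knockout), 2.81-fold lower (2.12 to 3.76). CD163L1, a scavenger receptor related to CD163, had 17 and 0 fragments. These genes went both ways, as did the lists of macrophage genes.

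Genes induced by interferon gamma or sensing nucleic acids were also among them. UBD, a ubiquitin-like modifier, stood at 189 FPKM (wild type) and 793 FPKM (knockout), 4.33-fold higher (3.68 to 5.12), and ZBP1, a sensor of left-handed nucleic acid, at 43.4 FPKM (wild type) and 135 FPKM (knockout), 3.14-fold higher (2.63 to 3.77). PBD-2, a pig beta-defensin, had 18 and 3 fragments. SELPLG, the selectin ligand by which leukocytes roll, stood at 247 FPKM (wild type) and 592 FPKM (knockout), 2.42-fold higher (2.23 to 2.63).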
